A study of Drosophila melanogaster with 15 samples.

Results

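The comparison set whole Drosophila melanogaster embryos that had completed germ band elongation (T4) against embryos that had just begun it (T3). It used the 3 arrays of T4 and the 3 arrays of T3 in a series of 15 Affymetrix arrays over 5 stages, and all 13966 probe sets other than the array's own controls. Embryos of both stages were unmanipulated, came from yellow white and Oregon R flies, and were picked by hand under oil for their morphology before RNA extraction. The labels do not say whether an array holds 1 strain or both, how many embryos were pooled, or whether replicates are separate egg collections. The p-values thus reflect how far these arrays scatter, and part or all of that scatter may be technical. Germ band elongation is the wording of the sample labels, and the text of the series describes T3 and T4 as early and late gastrulation instead. The 3 earlier stages were embryos before nuclear cycle 9 (T0), in the slow phase of cellularisation (T1) and in its fast phase (T2). They entered the estimate of the spread and show the earlier history of each transcript.

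During germ band elongation the trunk of the fly embryo narrows and lengthens as cells exchange neighbours, so that its tail end folds over the dorsal side. Mesoderm that has folded inwards spreads beneath the ectoderm, and neural stem cells, the neuroblasts, leave the ventral ectoderm in waves. Proneural transcription factors make groups of ectodermal cells competent to become neuroblasts, and Notch signalling, which switches on the Enhancer of split genes, holds back all but 1 cell of each group. The short-lived transcripts that built the cellular blastoderm and laid down its segment pattern are by then being cleared or restricted to new domains.

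Signals were the deposited array values, scaled by the authors so that every array had the same trimmed mean. A probe set was called when its adjusted p was under 0.05 and its log2 difference, T4 minus T3, was at least 1 in size, by limma on log2(signal + 7.3) with Benjamini-Hochberg adjustment over all 13966 probe sets (two-sided). Because of the added 7.3, these differences understate the change of dim probe sets. The array's 23 negative-control probe sets gave a background level of 21.96 signal units, their 95th percentile. On the 6 arrays, 39.0% to 45.2% of signals were at or below it. Folds are ratios of geometric mean signals, and a fold is written "at least" where all arrays of the dimmer stage lay at or below background, which then stands in for those signals. The 6 arrays correlated at r = 0.909 to 0.949 between stages and 0.925 to 0.953 within stages across probe sets, which are not independent replicates. T4 replicate 2 stood farthest from its group (r of 0.925 and 0.926), with an actin 3′ to 5′ ratio of 3.36, against 1.75 and 2.16 on the other T4 arrays and 1.99 to 2.42 on the T3 arrays. T3 replicate 1 had a signal of 92.5 for the 3′ control of 18S ribosomal RNA, against 3.1 to 22.4 on the other 5 arrays. Without T4 replicate 2 the counts given next became 55 higher and 64 lower, and without T3 replicate 1 they became 58 and 72.

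Few transcripts were called between the 2 stages, while 1792 probe sets had an unadjusted p under 0.05. At T4, 72 of 13966 probe sets (0.516%) passed as higher and 78 (0.558%) as lower, 150 in all (1.07%). Of these, 16 higher and 8 lower ones differed by at least 2 on the log2 scale. Counted by gene, 59 rose and 73 fell among 10845 measured. The 3 T4 arrays lay wholly above or below the 3 T3 arrays in all 72 and all 78. Over all probe sets, T4 lay wholly above T3 in 1456 (10.4%) and wholly below in 1013 (7.25%), and the median log2 difference was 0.07. The counts leaned on single arrays and on the shared spread: they were 40 higher and 50 lower without T3 replicate 3, 50 and 43 without T3 replicate 2, and 6 and 3 when limma was run on the T4 and T3 arrays without the earlier stages. The split also moved with scaling, from 48% of calls higher as deposited to 36.4% after quantile normalization, 28.1% with arrays centred on their median and 67.4% with arrays centred on the hybridisation controls.

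**Figure D1:**
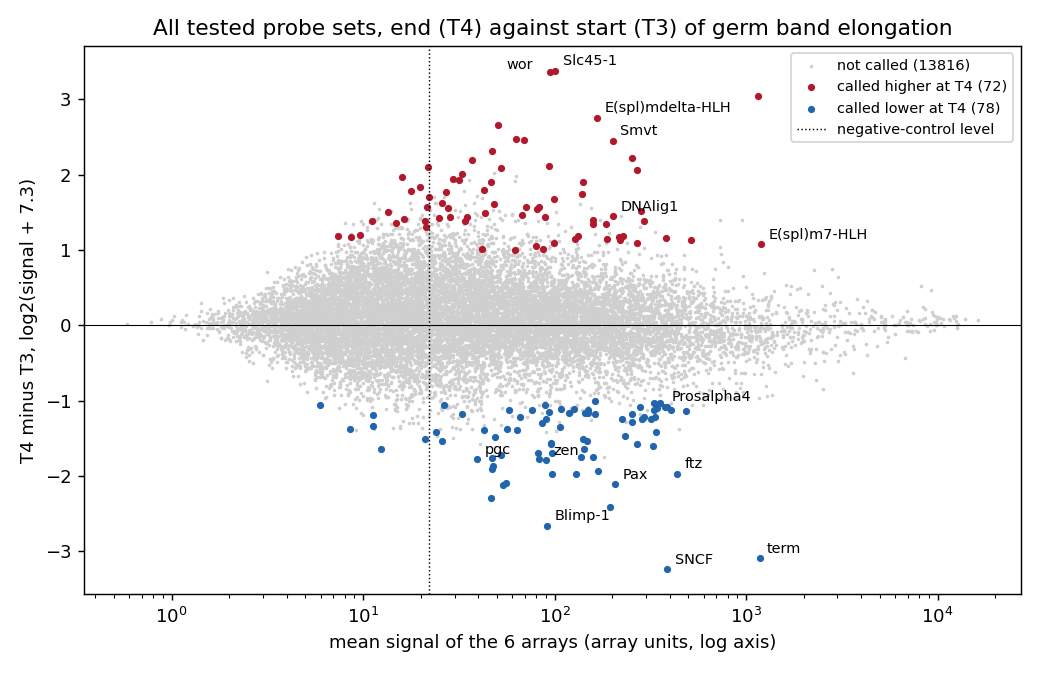
Difference between T4 and T3 on the log2(signal + 7.3) scale (y axis) against the mean signal of the 6 arrays (x axis, array units, log scale) for 13966 probe sets, with the 72 called higher and 78 called lower coloured and the negative-control level of 21.96 dotted. The largest differences are wor and Slc45-1 above 0 (3.36 and 3.38) and SNCF and term below (-3.24 and -3.09), while most probe sets lie near the median of 0.07.

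The transcripts that rose included 2 regulators of the nervous system, 1 of them among those that rose most. Worniu (wor), a snail-family transcription factor of neuroblasts, had signals of 186.0, 178.5 and 168.2 on the T4 arrays, against 17.6, 5.6 and 10.7 on the T3 arrays. All T3 values were below background and all T4 values far above it, and the stage means of T0, T1 and T2 (8.53, 18.9 and 7.17) were below background as well. The rise was at least 8.08-fold, a log2 difference of 3.36 ± 0.31 (SE, n = 3 arrays a stage; limma adjusted p = 2.3e-04). The proneural gene l(1)sc, a bHLH factor that confers neural competence, had signals of 476.6, 560.2 and 546.2 at T4, against 199.1, 311.4 and 200.7 at T3. Here transcripts were already present at T3 and the T4 level was 2.27-fold higher, with no overlap (log2 1.16 ± 0.22, limma adjusted p = 0.0158). That call ended when any of T3 replicate 1, T3 replicate 3, T4 replicate 2 or T4 replicate 3 was left out (adjusted p of 0.0523 to 0.0775).

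These were the 2 called members of a list of 32 measured proneural and neuroblast genes, none of which was called lower. Of all probe sets 0.516% were called higher. The median of the list was 0.22, against 0.07 for all probe sets, and T4 lay wholly above T3 in 8 members and wholly below in 1, against 10.4% and 7.25% of all probe sets. Among the uncalled members, sens, a zinc finger factor of sensory precursors, averaged 30.0 ± 2.0 at T4 and 9.57 ± 9.39 at T3 (SD, n = 3 each; limma adjusted p = 0.147). Other neuroblast genes were well above background at both stages: mira, which carries fate determinants to 1 daughter cell, averaged 1939.9 ± 66.8 at T4 and 2061.9 ± 394.5 at T3 (limma adjusted p = 0.955). The bHLH repressor dpn, which maintains neuroblasts, averaged 160.8 ± 29.9 at T4 and 134.9 ± 13.4 at T3 (SD, n = 3 each; limma adjusted p = 0.709). In whole embryos, a change in the number of cells of a type and a change in RNA per cell cannot be told apart, here or in any result that follows.

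Among genes that Notch signalling regulates, 2 of 12 measured Enhancer of split and Bearded genes rose and none fell. Across the 13966 probe sets the corresponding shares were 0.516% for a rise and 0.558% for a fall. Genes of this list encode bHLH repressors and small proteins of the Bearded family. E(spl)mdelta-HLH had signals of 324.1, 244.4 and 318.5 at T4, against 36.9, 41.5 and 33.1 at T3. It had been at background in T0 to T2 (stage means of 4.03 to 6.73), was just above it on every T3 array and 7.92-fold higher at T4 (log2 2.76 ± 0.39, limma adjusted p = 0.00382). The call ended with a pseudocount of 1. E(spl)m7-HLH had signals of 1574.4, 1765.4 and 1529.6 at T4, against 725.3, 884.6 and 693.7 at T3. Its stage means were 41.8, 127.0 and 398.6 at T0, T1 and T2, and it was 2.12-fold higher at T4 than at T3 (log2 1.08 ± 0.20, limma adjusted p = 0.0172). Its call ended without T3 replicate 1, T3 replicate 3, T4 replicate 1 or T4 replicate 2 (adjusted p of 0.0511 to 0.0794). It also ended with a pseudocount of 1 and with arrays centred on their median or on the hybridisation controls.

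All 12 members had a log2 difference above 0, and T4 lay wholly above T3 in 9, which was the case for 10.4% of all probe sets. The median of the list was 0.48, and it was 0.34 to 0.59 under the 4 scalings tried and 0.37 to 0.96 when 1 array was left out, 0.96 without T4 replicate 3. The uncalled E(spl)mbeta-HLH averaged 327.6 ± 91.1 at T4 and 118.2 ± 43.1 at T3 (SD, n = 3 each; log2 1.45, limma adjusted p = 0.0775). Tom, a Bearded-family gene, averaged 5025.0 ± 669.1 at T4 and 4416.6 ± 434.9 at T3 with overlapping arrays (limma adjusted p = 0.913).

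**Figure D2:**
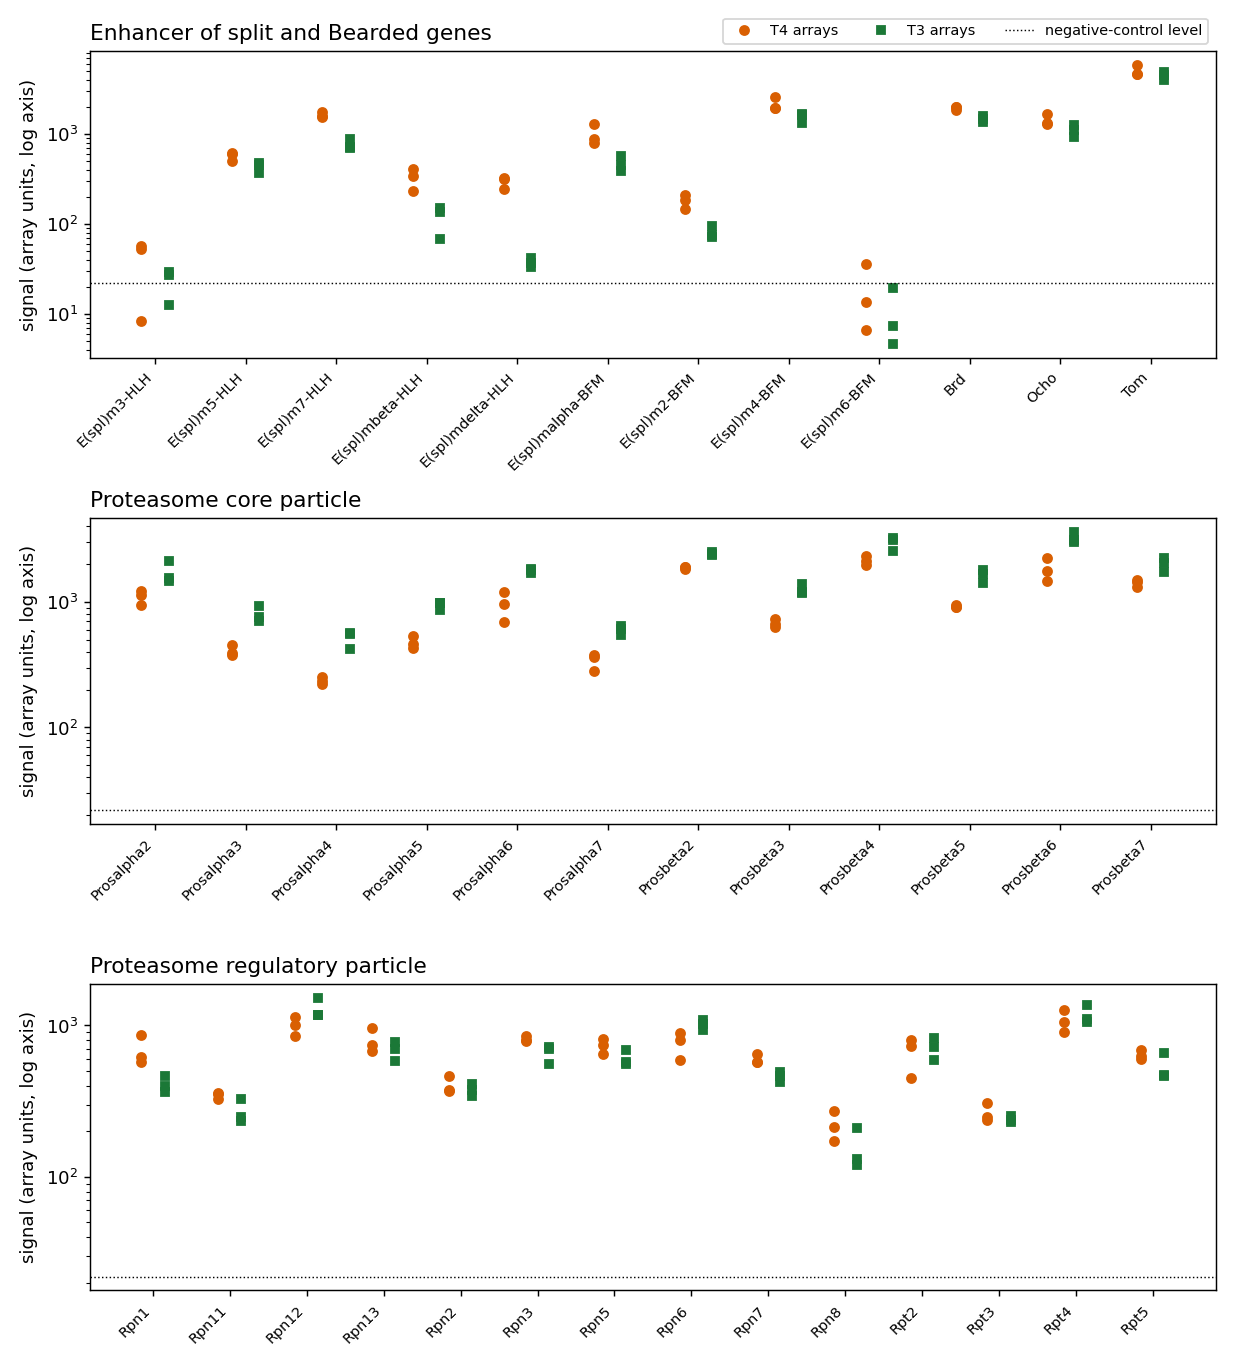
Signal on each T4 array (circles, left) and T3 array (squares, right) on a log axis in array units, for 12 Enhancer of split and Bearded genes, 12 subunits of the proteasome core and 14 of its regulatory particle, with the negative-control level dotted. T4 arrays lie wholly above T3 arrays in 9 of the 12 Enhancer of split and Bearded genes and wholly below in all 12 core subunits, while the regulatory particle has 3 above and 2 below.

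One mesodermal regulator passed the test. Bagpipe (bap), a homeobox gene of the visceral mesoderm, had signals of 252.6, 227.0 and 213.4 at T4, against 109.7, 54.3 and 94.9 at T3. The stages did not overlap and T4 was 2.79-fold higher (log2 1.40 ± 0.31, limma adjusted p = 0.046), but the call ended when any 1 of the 6 arrays was left out (adjusted p of 0.054 to 0.169). Of the 22 measured mesoderm regulators, bap alone was called and the median was 0.36 (0.22 without T3 replicate 2). Over all probe sets 0.516% were called higher. T4 lay wholly above T3 in 5 members and wholly below in 2, against 10.4% and 7.25% of all probe sets. The forkhead factor bin, which acts with bap in the visceral mesoderm, averaged 89.0 ± 37.4 at T4 and 34.2 ± 11.5 at T3 (SD, n = 3 each; limma adjusted p = 0.128). Six4 and eya, whose products work together in mesodermal patterning, also had T4 arrays wholly above T3 without passing the test: Six4 averaged 122.1 ± 25.0 at T4 and 41.4 ± 2.65 at T3 (limma adjusted p = 0.0704). For eya, the T4 signals were 114.2, 113.9 and 108.0, against 35, 36.5 and 27.8 at T3 (log2 1.57 ± 0.46, limma adjusted p = 0.121). The opposite sign was seen for twist (twi), the gene that specifies mesoderm in the blastoderm, with 630.8, 691.8 and 778.4 at T4, against 1278.1, 1262.2 and 1026.0 at T3. Its arrays did not overlap, yet the difference of -0.76 ± 0.29 missed the threshold (limma adjusted p = 0.26).

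Pvr, the receptor for PDGF- and VEGF-related ligands that guides the migration and survival of blood cells, rose to 29.5, 53.4 and 37.8 at T4, against 3.0, 4.3 and 3.5 at T3. It was at background on every T3 array and at all earlier stages, and rose at least 1.78-fold (log2 2.10 ± 0.36, limma adjusted p = 0.00962). This was the single call among 22 genes of glia, hemocytes, tracheae and salivary glands, where the median was 0.26 (0.55 without T3 replicate 1 or over members above background). Over all probe sets 0.516% were called higher. T4 lay wholly above T3 in 4 members and wholly below in 0, against 10.4% and 7.25% of all probe sets. Ribbon (rib), a nuclear protein needed for tube formation in tracheae and salivary glands, averaged 1056.5 ± 156.1 at T4 and 404.6 ± 124.6 at T3 (SD, n = 3 each; limma adjusted p = 0.0694). Breathless (btl), the FGF receptor of the tracheae, averaged 59.4 ± 9.96 at T4 and 19.0 ± 14.6 at T3 with no overlap (limma adjusted p = 0.106). Laminin A (LanA), a basement membrane subunit from the list of 22 matrix and integrin genes, of which none was called, had signals of 128.5, 78.6 and 99.4 at T4, against 29.9, 17.5 and 17.8 at T3 (log2 1.92 ± 0.44, limma adjusted p = 0.0518).

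Slc45-1, a sugar transporter, had signals of 214.3, 226.1 and 113.9 at T4, against 43.9, 4.5 and 1.9 at T3. The T3 arrays differed widely among themselves, but none reached the lowest T4 array (log2 3.38 ± 0.56, limma adjusted p = 0.00835). The call ended with a pseudocount of 1. Smvt, a sodium-dependent multivitamin transporter, had signals of 351.8, 368.0 and 312.3 at T4, against 48.1, 62.4 and 61.2 at T3. Its replicates were close at both stages and T4 was 6.04-fold higher (log2 2.45 ± 0.34, limma adjusted p = 0.00371). The organic anion transporter Oatp58Dc had signals of 312.8, 186.2 and 183.1 at T4, against 58.0, 40.5 and 65.2 at T3, a 4.11-fold rise (limma adjusted p = 0.0343) whose call ended without any 1 of the 6 arrays (adjusted p of 0.059 to 0.136). Cinnabar (cn), the kynurenine 3-monooxygenase of the eye pigment pathway, had signals of 55.2, 48.2 and 46.6 at T4, against 17.9, 4.3 and 3.7 at T3. It thus emerged from background by at least 2.27-fold (log2 1.95 ± 0.30, limma adjusted p = 0.00603).

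Other dim risers were the glutathione S-transferase GstE9 (90.1 ± 32.9 at T4 and 15.1 ± 5.1 at T3; SD, n = 3 each), the lipase Lip4 (54.1 ± 8.87 at T4 and 9.3 ± 6.0 at T3) and the UDP-glycosyltransferase Ugt49B2 (75.2 ± 12 at T4 and 20.9 ± 11.5 at T3). The lipid transfer protein Apoltp averaged 109.7 ± 39.3 at T4 and 32.3 ± 13.5 at T3, and the RNA-binding protein lin-28, which regulates stem cells, averaged 45 ± 10.8 at T4 and 9.13 ± 8.51 at T3. These calls each rested on several arrays. They ended without T3 replicate 1 or T4 replicate 1 for GstE9, without T3 replicate 2 or 3 for Lip4 and Ugt49B2, without T3 replicate 2, T3 replicate 3, T4 replicate 1 or T4 replicate 2 for Apoltp, and without any array other than T3 replicate 1 for lin-28 (adjusted p of 0.0511 to 0.139 over the 5 genes).

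Other risers had been supplied by the mother, were low during cellularisation and were higher again at T4. DNAlig1, the DNA ligase that joins replicated fragments, had signals of 284.4, 342.0 and 275.3 at T4, against 103.5, 112.6 and 99.8 at T3. Its stage means were 372.4 at T0, 30.2 at T1 and 47.3 at T2, and it was 2.84-fold higher at T4 than at T3 (log2 1.45 ± 0.21, limma adjusted p = 0.00486). Hira, a chaperone that deposits the histone variant H3.3, had signals of 141.9, 126.6 and 110.6 at T4, against 25.1, 36.9 and 56.0 at T3. Its stage means were 340.8 at T0, 43.7 at T1 and 30.8 at T2, and its rise of 3.37-fold at T4 (limma adjusted p = 0.0147) lost the call without T3 replicate 1, T3 replicate 2 or T4 replicate 1 (adjusted p of 0.0584 to 0.0626). The same shape was seen for Sirup, which assembles mitochondrial complex II, at 396.1 at T0, 53.2 at T1, 33.2 at T2, 58.7 ± 9.28 at T3 and 218.1 ± 52.1 at T4. Rab18, a small GTPase of membrane traffic, had a mean of 215.4 at T0, was at background from T1 to T3, and averaged 77.8 ± 19.5 at T4 and 15 ± 1.62 at T3. POSH, a scaffold of JNK signalling, averaged 53.7 ± 10.3 at T4 and 15.8 ± 6.85 at T3 after 343.0 at T0. ERp44, a protein of the endoplasmic reticulum, averaged 231.3 ± 90.4 at T4 and 84.1 ± 22.7 at T3 after 535.4 at T0, while Nadk2, an NAD kinase, averaged 103.0 ± 24.2 at T4 and 32.8 ± 11.5 at T3 after 108.0 at T0. The zinc finger gene D19A averaged 36.0 ± 7.78 at T4 and 7.17 ± 1.66 at T3 after 173.5 at T0. Each of these 6 was called, with adjusted p between 0.0132 and 0.0459 by limma, and each lost its call when single arrays were left out (adjusted p of 0.0567 to 0.149). Those arrays were T3 replicate 2, T3 replicate 3 and T4 replicate 2 for Rab18 and Nadk2. They were T3 replicate 1, T3 replicate 3, T4 replicate 1 and T4 replicate 2 for Sirup, and T3 replicate 1, T3 replicate 2, T4 replicate 1 and T4 replicate 3 for D19A. For ERp44 they were all but T4 replicate 3, and for POSH all 6.

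The remaining named risers were the latrophilin receptor Cirl (271.1 ± 59.1 at T4 and 100.8 ± 11.1 at T3; SD, n = 3 each), lili (52.4 ± 4.74 at T4 and 15.7 ± 4.21 at T3), fid (27.1 ± 4.58 at T4 and 5.67 ± 2.37 at T3) and the glycosyltransferase Mgat4b (23.3 ± 0.361 at T4 and 3.7 ± 2.55 at T3). Both fid and Mgat4b were barely above background at T4. The calls ended without any array but T4 replicate 3 for Cirl, without T3 replicate 2 or 3 for fid and without T3 replicate 1 or 3 for Mgat4b (adjusted p of 0.0507 to 0.134), while that of lili held without each array but ended with hybridisation-control centring and with the pseudocount at the median signal.

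The list of 31 measured genes for DNA replication and nucleotide supply, which does not hold DNAlig1, had 0 calls. T4 lay wholly above T3 in 15 members and wholly below in 0, against 10.4% and 7.25% of all probe sets, and the median was 0.40 (0.26 to 0.51 under the 4 scalings). RPA1, the largest subunit of the single-strand binding protein, averaged 657.3 ± 71.5 at T4 and 387.6 ± 39.1 at T3 (SD, n = 3 each; limma adjusted p = 0.103). PolE1, the catalytic subunit of DNA polymerase epsilon, averaged 238.7 ± 29.2 at T4 and 131.5 ± 3.93 at T3 (limma adjusted p = 0.112). Among 23 cell-cycle genes likewise 0 were called. Rca1, which restrains the anaphase-promoting complex, came closest with 320.8 ± 36.4 at T4 and 163.6 ± 41.5 at T3, an adjusted p of 0.0473 by limma and a log2 difference of 0.97, just short of 1.

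**Figure D3:**
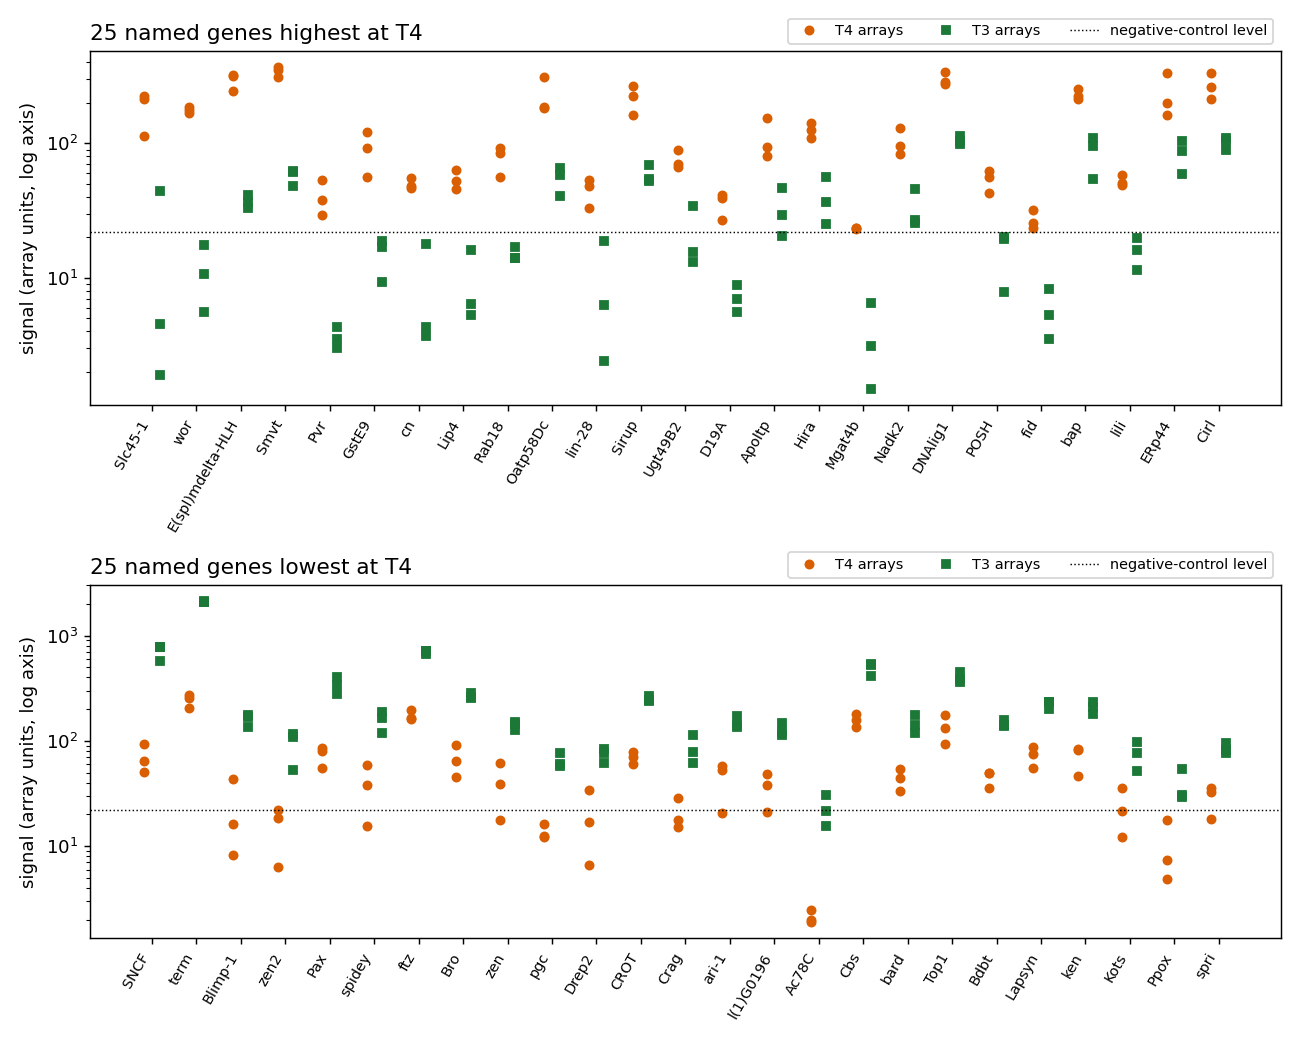
Signal on each T4 array (circles, left) and T3 array (squares, right) on a log axis in array units for the 25 named genes with the highest and the 25 with the lowest difference, with the negative-control level of 21.96 dotted. T4 and T3 arrays do not overlap in any of the 50 genes, and many risers, wor among them, lie below the dotted line on all T3 arrays.

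Among the transcripts that fell were genes transcribed in a burst at cellularisation. Of 15 measured zygotic cellularisation genes 5 fell and none rose, with T4 wholly below T3 in 9 and a median of -0.45. Over all probe sets 0.558% fell and 7.25% lay wholly below. The median of the list was -0.78 without T3 replicate 2, -0.77 over its members above background and -0.76 with a pseudocount of 1. SNCF had signals of 50.9, 63.9 and 94.3 at T4, against 570.5, 775.1 and 772.6 at T3. After a peak of 3085.9 at T1 and 2606.4 at T2 it was 10.4-fold lower at T4 than at T3 (log2 -3.24 ± 0.32, limma adjusted p = 2.5e-04). For terminus (term), the T4 signals were 205.3, 253.1 and 274.5, against 2139.6, 2094.0 and 2105.6 at T3. Replicates were tight at both stages, and this 8.71-fold fall had the lowest adjusted p of the named genes (log2 -3.09 ± 0.17, limma adjusted p = 1.3e-06). Z600, an inhibitor of mitosis, averaged 59.0 ± 23.6 at T4 and 154.0 ± 19.2 at T3 (SD, n = 3 each), most of its decline having come earlier (6751.7 at T1 and 1517.6 at T2). Its call (limma adjusted p = 0.0141) ended without T3 replicate 2, with an adjusted p of 0.0676.

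Sry-alpha, which organises actin at the furrows that divide the blastoderm into cells, had signals of 160.2, 212.9 and 148.3 at T4, against 372.2, 464.3 and 396.2 at T3 (log2 -1.22 ± 0.19, limma adjusted p = 0.00541). The fifth member called, bard, had signals of 44.6, 54.4 and 33.6 at T4, against 177.1, 119.3 and 143.0 at T3 (log2 -1.58 ± 0.21, limma adjusted p = 0.00268). With arrays centred on the hybridisation controls the calls of Z600, Sry-alpha and bard ended, and those of SNCF and term held. Of the uncalled members, 4 had T4 wholly below T3, among them insv, with signals of 587.5, 698.6 and 678.6 at T4, against 1233.6, 1106.5 and 1031.2 at T3 (log2 -0.77 ± 0.22, limma adjusted p = 0.112). For slam and halo the arrays of the stages overlapped. The furrow gene slam had stage means of 435.5 at T2 and 8763.7 at T1, and it averaged 108.7 ± 9.85 at T4 and 95.2 ± 32.7 at T3 (limma adjusted p = 0.76). Halo, a regulator of lipid-droplet transport with 631.3 at T2 and 4671.8 at T1, averaged 421.3 ± 58.5 at T4 and 439.5 ± 31.4 at T3 (limma adjusted p = 0.928). The nuclear lamina gene kuk averaged 2864.5 ± 241.5 at T4 and 3726.4 ± 200.2 at T3 with no overlap (limma adjusted p = 0.335).

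The pair-rule list, which also holds other genes such as Blimp-1, declined in part. Of 12 measured, 2 fell, none rose, T4 lay wholly below T3 in 6 and the median was -0.51 (-0.65 to -0.40 under the 4 scalings and -0.34 without T4 replicate 1), while 0.558% of all probe sets fell and 7.25% lay wholly below. Fushi tarazu (ftz), a homeobox pair-rule gene, had signals of 161.1, 196.6 and 163.3 at T4, against 670.2, 714.5 and 719.8 at T3. It was 4.05-fold lower with little spread at either stage (log2 -1.97 ± 0.29, limma adjusted p = 0.00486). Blimp-1, a zinc finger repressor, had signals of 8.2, 16.4 and 43.0 at T4, against 135.5, 178.0 and 167.6 at T3, so that 2 of the 3 T4 arrays were below background (log2 -2.66 ± 0.39, limma adjusted p = 0.00486). The pair-rule genes eve, hry and opa were lower on every T4 array without passing the test. For eve the signals were 106.0, 197.9 and 175.3 at T4, against 376.9, 351.0 and 269.9 at T3 (log2 -1.06 ± 0.26, limma adjusted p = 0.0662). For hry the means were 91.3 ± 9.76 at T4 and 209.0 ± 61.5 at T3 (limma adjusted p = 0.138), and opa had signals of 146.8, 108.8 and 117.4 at T4, against a widely scattered 196.5, 249.5 and 602.1 at T3 (limma adjusted p = 0.117). Bro, a partner of the pair-rule protein Runt, had signals of 63.8, 45.5 and 91.6 at T4, against 287.9, 256.0 and 260.6 at T3. It was 4.16-fold lower at T4 (log2 -1.94 ± 0.26, limma adjusted p = 0.00268), and its call ended with arrays centred on the hybridisation controls.

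In the gap and head gap list, 0 of 15 genes were called. T4 lay wholly above T3 in 5 members and wholly below in 1, against 10.4% and 7.25% of all probe sets. The POU-domain genes nub and pdm2, which act as gap genes and later in neuroblasts, and the head gap gene ems had T4 arrays wholly above T3 at adjusted p of 0.0939, 0.0672 and 0.0773. The signals of pdm2 were 934.6, 875.6 and 1112.1 at T4, against 489.5, 504.3 and 498.5 at T3. For nub they were 451.7, 464.8 and 285.7 at T4, against 144.6, 178.9 and 144.6 at T3. Segment polarity genes, which hold the segment boundaries through this stage, gave 0 calls among 13, with gsb at 520.2 ± 31.0 at T4 and 334.4 ± 35.6 at T3 (limma adjusted p = 0.227) and ptc, the Hedgehog receptor, at 392.1 ± 31.5 at T4 and 361.1 ± 40.9 at T3 (SD, n = 3 each; limma adjusted p = 0.881).

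Dorsal patterning genes fell in 2 of 19 cases, both homeobox genes of the zen pair that neighbour each other among measured genes. Over all probe sets 0.558% fell. Zerknullt (zen), which specifies the amnioserosa, had signals of 38.6, 17.7 and 61.3 at T4, against 152.6, 144.4 and 126.4 at T3, a 4.05-fold fall (log2 -1.79 ± 0.32, limma adjusted p = 0.0129). Its call ended without T3 replicate 2 (adjusted p = 0.0549). The neighbouring zen2 had signals of 22.1, 18.5 and 6.4 at T4, against 52.4, 109.4 and 115.3 at T3 (log2 -2.12 ± 0.43, limma adjusted p = 0.0261), and its call ended without T3 replicate 2, T3 replicate 3, T4 replicate 2 or T4 replicate 3 (adjusted p of 0.0609 to 0.11). Both calls also ended with arrays centred on the hybridisation controls. The list as a whole had a median of 0.02, whose sign changed with the scaling. T4 lay wholly above T3 in 4 members and wholly below in 5, against 10.4% and 7.25% of all probe sets. Ance, an amnioserosa peptidase, averaged 252.3 ± 9.72 at T4 and 125.9 ± 18.1 at T3 (SD, n = 3 each; limma adjusted p = 0.139), and Dad, an inhibitor of Dpp signalling that Dpp induces, averaged 23.6 ± 5.48 at T4 and 5.7 ± 4.45 at T3 (limma adjusted p = 0.106).

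In the pole cell list, 1 of 13 genes fell, against 0.558% of all probe sets. Polar granule component (pgc), a small protein that blocks transcription in the pole cells, had signals of 12.3, 12.5 and 16.3 at T4, against 60.1, 57.9 and 77.5 at T3. It passed below background on every T4 array, at least 2.94-fold lower (log2 -1.78 ± 0.20, limma adjusted p = 5.8e-04), the last step of a decline from 692.8 at T0 through 102.8 at T1 and 89.3 at T2. Aub, a Piwi-family protein of the germ line, averaged 76.0 ± 6.96 at T4 and 113.8 ± 14.8 at T3 (SD, n = 3 each; limma adjusted p = 0.197), and vas, the germ-line helicase, had signals of 15.4, 33.1 and 14.1 at T4, against 16.1, 4.0 and 1.0 at T3, with 1 T4 array above background (log2 1.05, limma adjusted p = 0.323).

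The next named fallers had been supplied by the mother and were still present at T2. Paxillin (Pax), an adaptor at integrin adhesions, had signals of 80.5, 55.2 and 85.1 at T4, against 280.0, 337.8 and 402.6 at T3. Its stage means were 200.1 at T0, 476.2 at T1 and 490.6 at T2, and it was 4.65-fold lower at T4 than at T3 (log2 -2.11 ± 0.22, limma adjusted p = 4.1e-04). CROT, a carnitine octanoyltransferase of fatty acid breakdown, had signals of 70.1, 59.8 and 78 at T4, against 245.5, 237.9 and 265.6 at T3 (log2 -1.75 ± 0.18, limma adjusted p = 4.1e-04). Cbs, the cystathionine beta-synthase that makes cysteine from methionine-derived homocysteine, had signals of 158.3, 135.1 and 181.6 at T4, against 529.3, 542.5 and 415.8 at T3. For both enzymes the highest T4 array was less than the lowest T3 array by a wide gap, and Cbs was 3.13-fold lower (log2 -1.60 ± 0.20, limma adjusted p = 0.00148). DNA topoisomerase I (Top1), which relaxes supercoils, had signals of 132.4, 94.4 and 176.8 at T4, against 455.7, 361.2 and 390.3 at T3 (log2 -1.57 ± 0.23, limma adjusted p = 0.00487). Crag, an exchange factor of Rab10 in epithelial polarity, averaged 20.4 ± 7.01 at T4 and 84.7 ± 26.9 at T3 (SD, n = 3 each; limma adjusted p = 0.00486). The inositol pyrophosphate kinase gene l(1)G0196 averaged 36.1 ± 14 at T4 and 128.3 ± 17.4 at T3 (limma adjusted p = 0.00408). The transcriptional repressor ken differed in its history, with 382.7 at T0, 21.7 at T1 and 116.5 at T2 before 209.4 ± 28.2 at T3 and 70.5 ± 21.3 at T4 (limma adjusted p = 0.00797). The calls of these 7 genes held without each of the 6 arrays in turn, and so did that of Bdbt, a partner of the clock kinase Doubletime (45 ± 7.95 at T4 and 145.4 ± 10.2 at T3), also maternal. With arrays centred on the hybridisation controls the calls of Top1, ken and Bdbt ended. Lapsyn, a leucine-rich repeat membrane protein, was instead at background at T0 (5.5) and averaged 72.4 ± 16.1 at T4 and 222.4 ± 20.2 at T3 (SD, n = 3 each). Its call held without each array but ended with the hybridisation-control centring and with a pseudocount of 1.

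For the last named fallers, leaving out any of several arrays raised the adjusted p above 0.05, while the log2 difference stayed below -1. The steroid dehydrogenase spidey averaged 37.5 ± 22.0 at T4 and 156.4 ± 35.4 at T3 (SD, n = 3 each), Drep2 averaged 19.2 ± 13.7 at T4 and 74.6 ± 11.4 at T3, and the ubiquitin ligase ari-1 averaged 43.9 ± 20.1 at T4 and 149.7 ± 19.5 at T3. The adenylyl cyclase Ac78C averaged 2.13 ± 0.321 at T4 and 22.7 ± 7.64 at T3, close to background even at T3. These 4 calls ended without T3 replicate 2 or T3 replicate 3 (adjusted p of 0.0507 to 0.0742), with log2 differences without single arrays of -2.33 to -1.55 for spidey and -1.82 to -1.45 for Ac78C. Kots averaged 23 ± 11.7 at T4 and 74.9 ± 23.0 at T3, Ppox, the protoporphyrinogen oxidase of haem synthesis, averaged 9.97 ± 6.73 at T4 and 37.9 ± 13.6 at T3, and spri averaged 28.8 ± 9.32 at T4 and 84.5 ± 9.78 at T3. Their calls ended without any 1 of 4 arrays for Kots (replicates 2 and 3 of both stages), without any array but T4 replicate 3 for Ppox and without any 1 of the 6 for spri, whose log2 difference then lay between -1.52 and -1.14 (adjusted p of 0.0511 to 0.149 over the 3 genes).

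Of all 55 called genes named by the rule, 25 kept the call without each of the 6 arrays in turn, namely 8 of the 27 that rose and 17 of the 28 that fell. Of these 25, 10 lost it under another scaling or pseudocount, 8 of them with hybridisation-control centring, and 15 kept it under every other setting that used all 15 arrays, namely wor, Smvt, Pvr, cn and DNAlig1 of those that rose and SNCF, term, Blimp-1, Pax, ftz, pgc, CROT, Crag, l(1)G0196 and Cbs of those that fell. When only the T4 and T3 arrays were fitted, the genes with a name that were still called were wor, E(spl)mdelta-HLH, Smvt and CG8289 higher and SNCF, term and ftz lower.

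The proteasome, the particle that degrades ubiquitin-tagged proteins, was divided into its parts after the values were seen, with earlier results of these data known. All 12 measured subunits of the catalytic core had T4 arrays wholly below T3, as had 7.25% of all probe sets, with log2 differences of -1.08 to -0.37 and a median of -0.82. That median lay between -0.97 and -0.72 under the scalings tried. Only Prosalpha4 was called lower, as were 0.558% of all probe sets. Its signals were 252.7, 222.0 and 236.0 at T4, against 566.2, 418.5 and 553.8 at T3 (log2 -1.08 ± 0.21, limma adjusted p = 0.0182). That call ended without T3 replicate 1, T3 replicate 3, T4 replicate 2 or T4 replicate 3 (adjusted p of 0.0534 to 0.0794). With Prosalpha4, 5 core subunits had an adjusted p under 0.05 by limma. Among them Prosbeta5, a catalytic subunit, had signals of 907.4, 948.0 and 910.4 at T4, against 1811.6, 1669.7 and 1405.6 at T3 (log2 -0.81 ± 0.17, limma adjusted p = 0.0343). The 14 subunits of the regulatory particle, which recognises and unfolds substrates, gave 0 calls, 3 wholly above (10.4% of all probe sets were) and 2 wholly below, with a median of 0.24. Rpn1, a scaffold of that particle, averaged 685.8 ± 155.9 at T4 and 409.8 ± 51.3 at T3 (SD, n = 3 each; limma adjusted p = 0.0998). The 13 proteasome paralogs with names ending in T or R, a group with only 3 members above background, had a median of 0.25. The difference between core and regulatory particle was not tested.

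**Figure D4:**
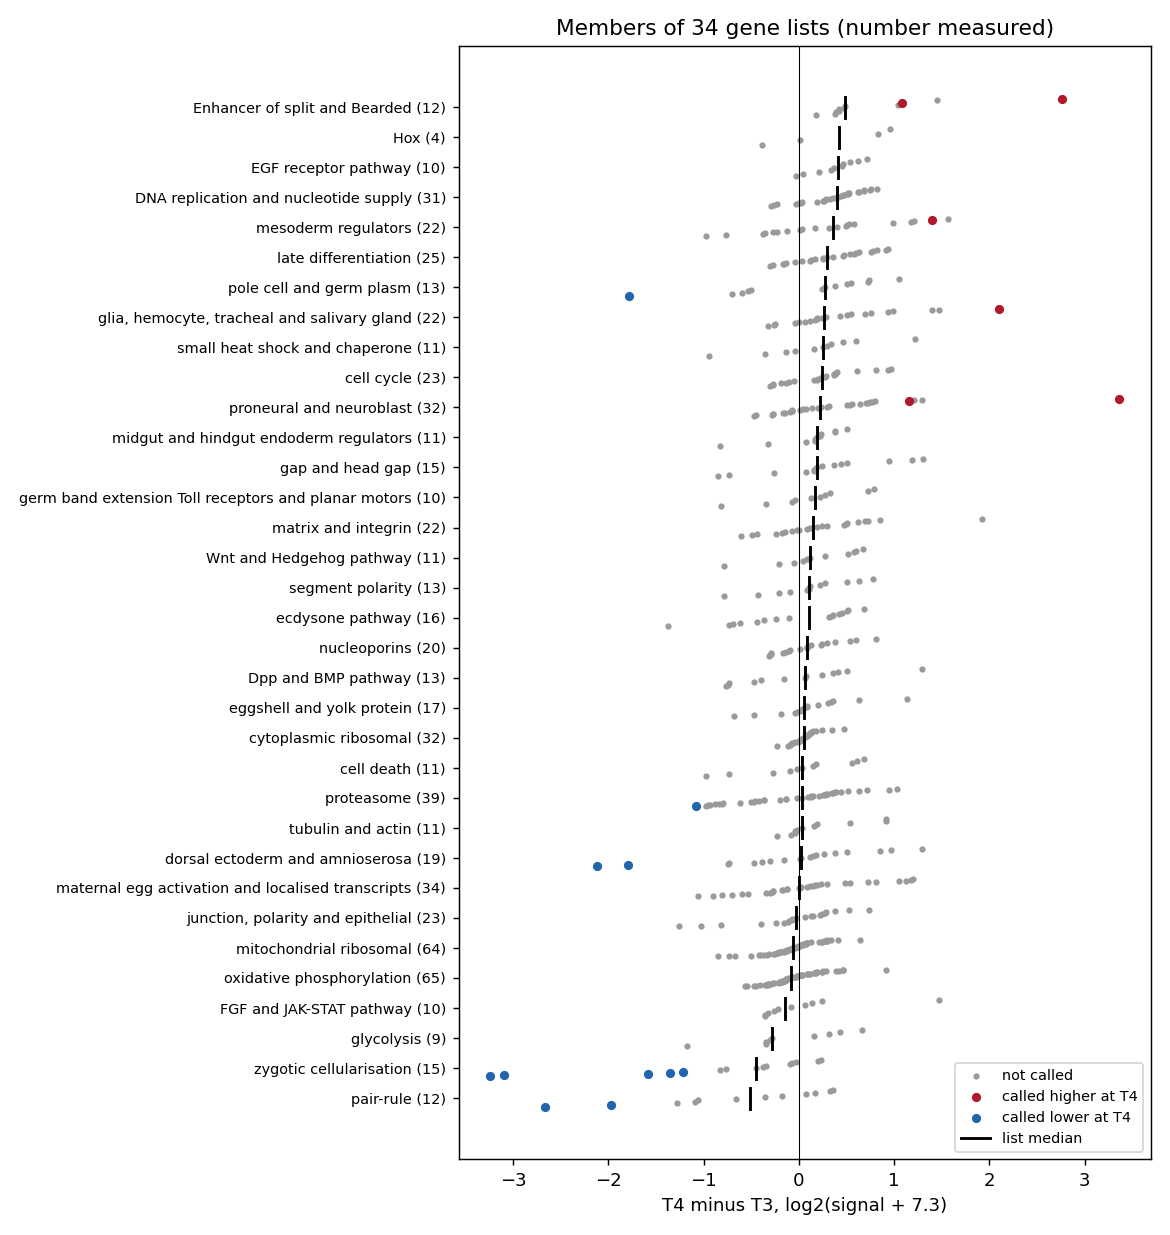
Difference between T4 and T3 on the log2(signal + 7.3) scale (x axis) for each measured gene of 34 lists (rows, with the number measured), with called genes coloured and a bar at the median of each list. Medians run from -0.51 for the pair-rule list to 0.48 for Enhancer of split and Bearded genes, and calls are few, with 5 lower in zygotic cellularisation and 2 higher in Enhancer of split and Bearded.

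In most lists no gene was called in either direction. Besides the lists already described, that held for the EGF receptor pathway (10 genes, median 0.41, T4 wholly above T3 in 7, against 10.4% of all probe sets), the Hox genes (4, median 0.42, but 0.01 over the 3 above background), late differentiation genes (25, median 0.29, and 0.19 without T4 replicate 2), the Toll receptors and motors of cell intercalation (10, median 0.17, and 0.08 without T4 replicate 1) and glycolysis (9, median -0.28, and -0.11, -0.12 and -0.18 without T4 replicate 1, 2 and 3). Spitz (spi), the main EGF ligand of the embryo, averaged 1918.2 ± 488.3 at T4 and 1298.2 ± 202.7 at T3 (SD, n = 3 each; limma adjusted p = 0.317). Of the Toll receptors that guide cell intercalation, 18w averaged 1009.5 ± 112.0 at T4 and 1101.2 ± 364.5 at T3 (limma adjusted p = 0.959). Cytoplasmic ribosomal genes (32 measured, median 0.05), genes of oxidative phosphorylation (65, median -0.08) and mitochondrial ribosomal genes (64, median -0.06) also had 0 calls, and the sign of each of these 3 medians changed with the scaling. The junction and polarity list of 23 had a median of -0.03, whose sign changed with the scaling, and 11 members above 0. T4 lay wholly above T3 in 3 and wholly below in 4, against 10.4% and 7.25% of all probe sets. Its lowest member, the apical determinant crb, averaged 88.6 ± 25.9 at T4 and 221.5 ± 63.0 at T3 (limma adjusted p = 0.0632). In the same list scrib, which acts on the basolateral side, averaged 267.2 ± 82.2 at T4 and 539.1 ± 51.6 at T3 (limma adjusted p = 0.0678). The ecdysone list of 16 had a median of 0.11, whose sign also changed with the scaling. Its lowest member, the synthesis gene spo, averaged 248.3 ± 74.0 at T4 and 641.8 ± 118.4 at T3 (limma adjusted p = 0.0914).

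The earlier history of called probe sets is given as counts, with no test. Probe sets were sorted by their means at T0, T1 and T2. Those means did not enter the T4 minus T3 difference, but the arrays of these stages entered the estimate of the spread behind the calls. Zygotic by T2 meant at background at T0, then above background at T1 or T2 and there at least 1 higher than T0 on the log2 scale. Of 805 such probe sets, 19 (2.36%) fell and 7 (0.87%) rose. Maternal meant only a T0 mean above background. Of 6561 that were maternal in this sense and still present at T2, 56 (0.854%) fell and 26 (0.396%) rose. This class also holds genes with far higher signals later. The fallers Sry-alpha (42.1 at T0 and 5055.5 at T1) and ftz (25.4 at T0 and 1312.6 at T2) are examples. So is the riser E(spl)m7-HLH (41.8 at T0 and 767.9 at T3). Of 899 that were maternal and lost by T2, 9 (1.00%) rose and 1 (0.111%) fell. Of 4974 that were not above background before T3, 25 (0.503%) rose and 2 (0.0402%) fell, but a probe set at background has little room to fall. For the 72 that rose, the median signal was 19.5, 19.0, 23.0 and 20.4 at T0 to T3 and 106.3 at T4. For the 78 that fell it was 165.0 at T0, 334.6 at T1, 163.3 at T3 and 58.5 at T4, and 59 of them still averaged above background at T4.

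**Figure D5:**
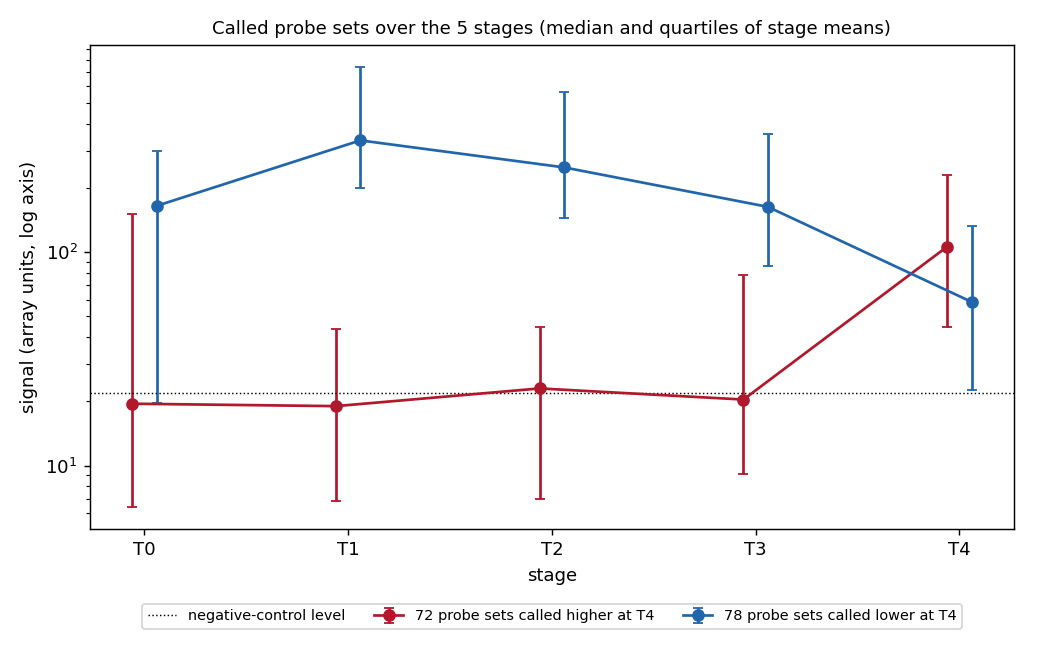
Median signal (array units, log axis) over stages T0 to T4 of the 72 probe sets called higher and the 78 called lower at T4, with bars from the lower to the upper quartile of stage means and the negative-control level dotted. The risers stay between 19.0 and 23.0 until T3 and reach 106.3 at T4, while the fallers peak at 334.6 at T1 and are at 58.5 at T4.

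No measured marker of maternal tissue or of later cell types was called, and some of them averaged above background at both stages. The 4 eggshell markers summed to 161.8 to 192.2 at T4, against 157.5 to 287.6 at T3, and the 3 yolk protein markers to 74.1 to 140.6 at T4, against 77.9 to 85.8 at T3, with Cp15 and Yp1 below background on all 6 arrays and the stage means of Yp3 just below it (20.9 at T4 and 20.2 at T3). The 2 measured late muscle markers summed to 51.9 to 79.4 at T4, against 34 to 55.5 at T3, with Mlc1 at background, and the 2 late neuron markers to 31.2 to 66.6 at T4, against 55.0 to 60.5 at T3, with nSyb at background. The other measured markers of these 4 kinds averaged above background at both stages. Their means at T4 and T3 were 95.6 and 127.2 for Cp18, 75.8 and 56.2 for Yp2, and 48.5 and 43.8 for Cp36. They were 27.6 and 58.8 for Vm26Aa, 53.4 and 37.9 for Mlc2, and 40.5 and 47.4 for elav. The 2 measured pole cell markers, vas and pgc, summed to 27.7 to 45.6 at T4, against 61.9 to 78.5 at T3. Defining markers of the embryo's own layers were present at both stages, with the ectodermal cadherin shg at 238.9 ± 26 at T4 and 195.9 ± 17.2 at T3 (SD, n = 3 each; limma adjusted p = 0.702) and the amnioserosa gene peb at 214.2 ± 72.3 at T4 and 157.3 ± 3.87 at T3 (limma adjusted p = 0.719). The other ectodermal markers, crb and grh, had log2 differences of -1.26 and -0.28. The 3 ectodermal markers summed to 365.9 to 392.8 at T4, against 422.9 to 572.4 at T3. Of the other amnioserosa markers, ush had -0.30 and Ance 0.97. The 3 amnioserosa markers summed to 592.8 to 805.3 at T4, against 469.2 to 608.6 at T3. None of these was called. Mef2 and tin, defining markers of mesoderm, were not analysed here.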

How the data were processed

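Total RNA of hand-selected embryos was hybridised as biotin-labelled cRNA to Affymetrix arrays, and the deposited values are signals computed with MAS5, per the submitters' processing notes; its version is not given in the sources used here. Their 2% trimmed mean was 100 on the first T0 array and was not computed here for the others. Detection calls and probe positions were not used here. Precision is limited by 3 arrays a stage. Of 13966 probe sets, 12443 carried 1 gene symbol, 327 several and 1196 none, and 12394 symbols were updated by Entrez identifier. The probe set with the highest mean signal stood for a gene. Signals were tested as log2(signal + 7.3), 7.3 being the arrays' median 25th percentile, with limma 3.58.1 in R 4.3.3: 1 mean per stage over 15 arrays, contrast T4 minus T3. On simulated data of 13966 probe sets with 50 changed at each size, 88% of those changed by 1.5 on the log2 scale and 98% of those changed by 2 were called, with 11 unchanged ones. The noise was normal, and the changed probe sets were drawn only from those with a T3 level above 50 signal units. These rates therefore do not cover dimmer probe sets, and the median T3 signal of the probe sets called higher was 20.4.

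The rule named the 25 highest and 25 lowest called genes without overlap and above background in the brighter stage, passing over names that are only a CG or CR number, plus up to 6 called members per direction and the 2 brightest uncalled members of each of 34 gene lists. All called ones and part of the uncalled ones are described. Other uncalled genes, and CG8289, were named after their values were seen. The genes and lists were chosen with earlier results of these data known. Alternatives changed the scaling, pseudocount, dim-probe filter, variance model and arrays. Same-numbered T4 and T3 arrays deviated from their stage means with correlations of -0.009, 0.051 and 0.067, so the numbers were not taken as pairs.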

Additional observations from a re-analysis of the deposited data

How the results depend on the processing

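The 72 higher and 78 lower calls became 6 and 3 with only the T4 and T3 arrays fitted. Centring each array on its median gave 47 and 120, and hybridisation-control centring gave 29 and 14, which shifted the median log2 difference of all probe sets from 0.07 to -0.08 and 0.17. With a pseudocount of 1, 43 were higher and 63 lower. Leaving out 1 array at a time gave 40 to 83 higher and 43 to 77 lower. Replicate number as a replicate block, also with only the T4 and T3 arrays fitted, left 0 and 0 by limma. An unadjusted p under 0.05 by limma was reached by 1428 probe sets with the block. Without the block it was 1515 for the same arrays, and 1792 in the fit of all arrays. None of the 55 called named genes changed direction under the 16 alternatives, 33 lost the call with hybridisation-control centring, and 4 of 66 uncalled ones (Prosbeta6, cact, rib and spo) passed the threshold under at least 1. The fits with fewer arrays have fewer residual degrees of freedom. Otherwise the cause was not tested.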

Other observations

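Some of the clearest changes lay in probe sets without a gene symbol, named here after their values were seen. Probe set 143261_at had signals of 1734.1, 2649.5 and 1822.4 at T4, against a mean of 240.5 ± 11.5 at T3 (SD, n = 3), after stage means of 76.8, 102.7 and 124.5 at T0, T1 and T2 (log2 3.04 ± 0.26, limma adjusted p = 1.3e-04). Probe set 143920_at had signals of 103.1, 112.5 and 120.2 at T4, against 19.9, 10.2 and 13.4 at T3, after a mean of 308.5 at T0. Both were also called with only the T4 and T3 arrays fitted. Probe set 143358_at fell, with 163.4, 166.4 and 213.6 at T4, against 476.3, 490.0 and 511.1 at T3. Among genes known only by a number, CG8289 had signals of 446.7, 454.8 and 365.3 at T4, against 89.9, 73.4 and 92.0 at T3 (limma adjusted p = 0.00351), and CG14915 had signals of 39.4, 64.6 and 68.7 at T4, against 268.8, 368.8 and 362.0 at T3 after a mean of 4128.5 at T1 (limma adjusted p = 5.2e-04).

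Among measured genes in chromosomal order, no run of 3 neighbours was called in 1 direction, and 2 pairs of neighbours were, zen2 with zen lower and bap with Ugt49B2 higher.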
